A study of Mus musculus with 6 samples.

Results

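The stellate cell and extracellular matrix genes examined here are 42 genes chosen by name, all of them present among the 20673 genes that the deposited liver tables list. They were divided by role into 5 fibrillar collagen genes, 8 basement membrane genes, 14 genes of the interstitial matrix, 7 genes of matrix enzymes and their inhibitors, and 8 stellate cell and contractile markers. Liver RNA of C57BL/6J mice was sequenced with 1 library per liver, 3 of them from mice on a regular diet (RD) and 3 from mice that received a high-cholesterol diet (HCD) during 3 days. The RD was a standard chow, and the HCD supplied cholesterol, cocoa butter and sodium cholate together, so that these components cannot be told apart. All 6 livers came from mice without surgery or infection. Mice of the strain were about 12 weeks old and of both sexes throughout the study, and the labels give neither age nor sex for single livers.

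Hepatic stellate cells lie between the sinusoidal endothelium and the hepatocytes and store vitamin A as retinyl esters. On injury they can become contractile, myofibroblast-like cells that deposit collagen, and transforming growth factor beta is a main signal for this activation. The liver matrix is made up of fibrillar collagens in the portal tracts and septa, a sparse basement membrane-like material along the sinusoids, and adhesive and regulatory proteins of which hepatocytes make a large part. Enzymes cross-link and degrade this matrix, and tissue inhibitors of metalloproteinases restrain the degradation.

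After 3 days of HCD, none of the 39 members that could be tested passed an adjusted p of 0.05, in either direction. The smallest adjusted p = 0.054, for Tgfb1, by the quasi-likelihood F test of edgeR, with the Benjamini-Hochberg method applied to all 13105 genes tested. Over all genes tested, 1.95% were called higher and 1.32% lower with HCD. At an unadjusted p under 0.05, which is no call, 5 members were higher (Tgfb1, Mmp14, Lum, Col1a2 and Dcn) and Col18a1 was lower, beside 11.1% and 9.81% of all genes in these directions. The 5 rested on the livers and settings, with 4 to 5 higher on leaving out any liver but HCD replicate 2, and 17 of 39 (beside 11.4% of all genes) without that one. It was 10 of 41 with DESeq2 (beside 9.74%) and 11 of 42 without the filter on low counts (beside 7.64%). DESeq2, the other count model, called Tgfb1 and Mmp14 higher and no member lower, beside 3.88% and 3.09% of all genes. Most members nevertheless had fitted values above 0, with a log2 fold change of HCD over RD above 0 for 33 of 39 members (84.6%) and for 50.7% of all genes. Their median log2 fold change was 0.38, beside 0.0074 over all genes. In 4 members every HCD liver lay above every RD liver, and in 1 every HCD liver lay below, while 14.0% and 13.7% of all genes were separated in these ways. The high values came mostly from HCD replicates 1 and 3, whereas HCD replicate 2 resembled the RD livers.

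The depth was 13771630 to 23129576 counts per liver with RD and 13935491 to 18545549 with HCD, and a count of 0 allows up to 0.130 to 0.218 CPM, the counts of a library brought to a common total. Livers of the same diet varied by a biological coefficient of variation of 27.8%. In bulk liver, fewer cells of a type and less RNA per cell cannot be told apart. HCD replicate 1 had 5032 counts of Xist, an RNA of female cells, where the other 5 livers had 0. It had 0 counts of the Y-linked genes Uty, Ddx3y, Kdm5d and Eif2s3y, each of which had 65 to 1229 in the other 5 livers. By these genes HCD replicate 1 was the only female liver, so that sex was not balanced between the diets. The part of sex in the results was not tested. Without HCD replicate 1 the median log2 fold change of the members was 0.23, and 29 of 39 lay above 0. Without HCD replicate 3 these were 0.24 and 25 of 39. Reads on genes that overlap on opposite strands cannot be separated without strand information, and no source used here states the strand. Exons of 7 members overlap exons of another listed gene in this way.

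Levels between genes were compared on the deposited FPKM, which divide by gene length. The levels spanned more than 3 orders of magnitude, and 7 members averaged 10 FPKM or more over the 6 livers, 34 averaged 1 or more, and 8 averaged less than 1. Col18a1, whose product carries endostatin at its end, was the highest at 203 FPKM. It was followed by Fn1, the gene of fibronectin, at 177 FPKM, and by Ecm1, the gene of extracellular matrix protein 1, at 91.9 FPKM. Dcn (32.2 FPKM), Bgn (26.0 FPKM), Sparc (19.4 FPKM) and Mmp14 (11.0 FPKM) completed the upper 7. The first 3 are genes that hepatocytes are known to express. By contrast, the fibrillar collagens averaged 0.504 FPKM (Col5a2) to 4.42 FPKM (Col3a1), and the classical markers of activated stellate cells were low, with Acta2 at 2.09 FPKM and Timp1 at 0.201 FPKM.

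**Figure D1:**
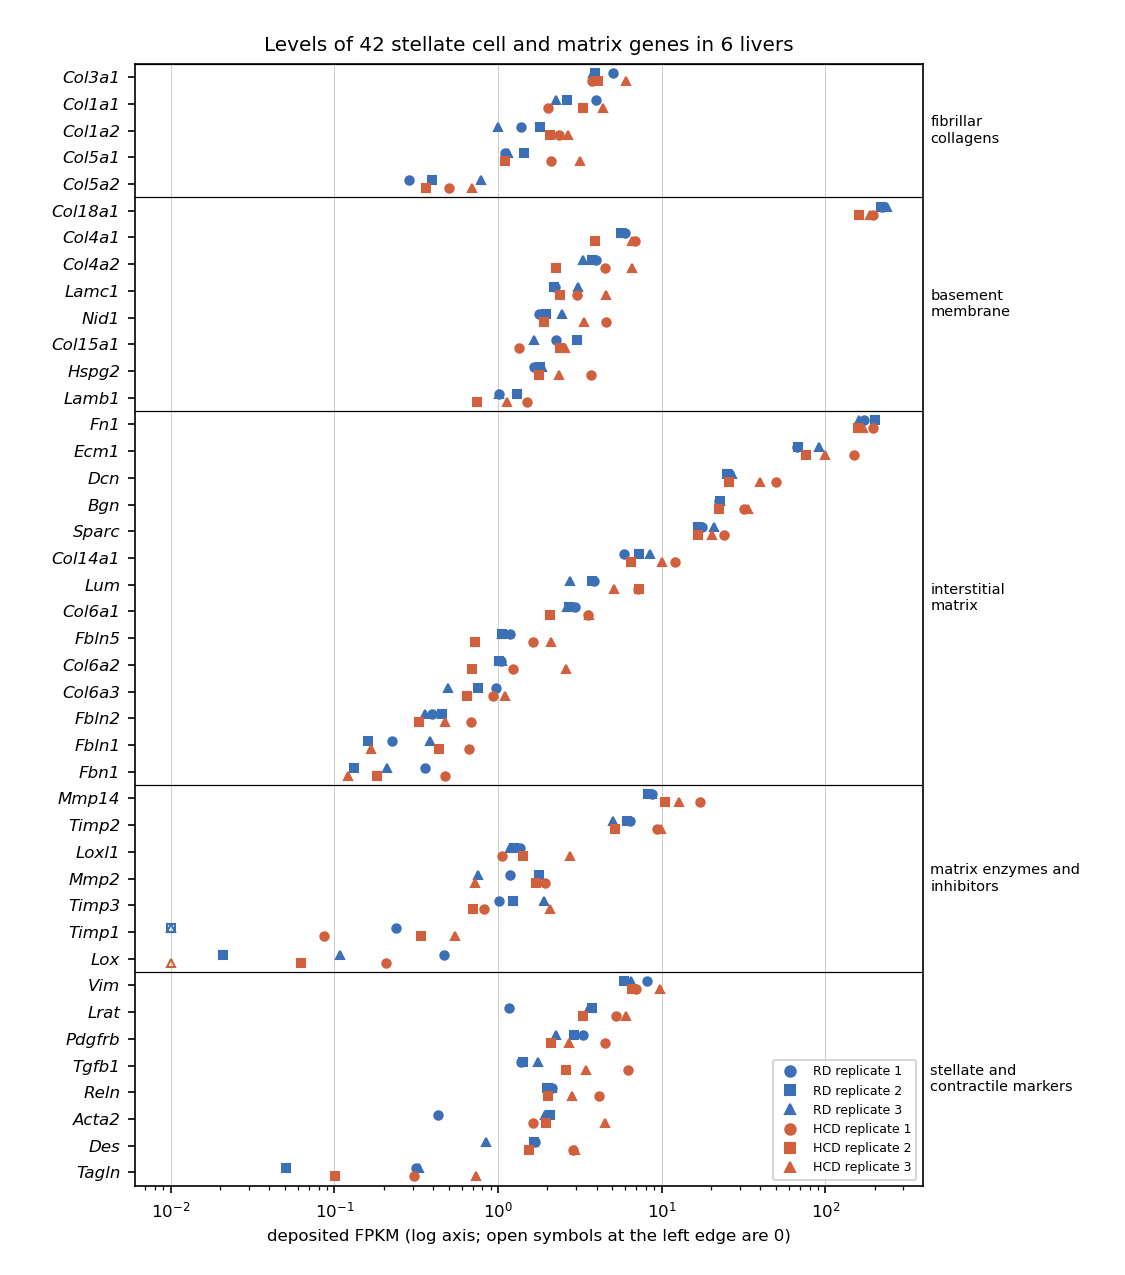
Deposited FPKM of the 42 members in each of the 6 livers, on a log axis, with RD in blue, HCD in orange and 1 symbol per replicate; open symbols at the left edge are values of 0. Col18a1, Fn1 and Ecm1 lie far above the rest, and Timp1, Lox and Fbn1 have the lowest means.

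The promoters of Tgfb1, Mmp14 and Col1a2 are shown because in these members every HCD liver lay above every RD liver, a choice made after the values were seen. Lum was the other such member and was not matched in the RefSeq table. The stretches lie before the RefSeq start sites of build GRCm38.p6 on the plus strand, at chr7:25686752-25687001, chr14:54431348-54431597 and chr6:4505370-4505492, and the stretch of Col1a2 was shortened to the 123 bases that no GENCODE M21 exon covers. Capitals mark matches to the motifs searched, on either strand.
Tgfb1: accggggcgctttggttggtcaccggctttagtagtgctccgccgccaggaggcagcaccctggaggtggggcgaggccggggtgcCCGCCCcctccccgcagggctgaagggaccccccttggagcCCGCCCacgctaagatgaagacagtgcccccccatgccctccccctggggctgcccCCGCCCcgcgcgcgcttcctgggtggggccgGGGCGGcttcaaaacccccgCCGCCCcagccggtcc
Mmp14: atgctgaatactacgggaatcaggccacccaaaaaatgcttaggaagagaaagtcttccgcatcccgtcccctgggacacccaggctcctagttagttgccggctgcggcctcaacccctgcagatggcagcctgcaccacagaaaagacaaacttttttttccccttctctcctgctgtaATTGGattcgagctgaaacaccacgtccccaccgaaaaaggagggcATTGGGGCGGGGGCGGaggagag
Col1a2: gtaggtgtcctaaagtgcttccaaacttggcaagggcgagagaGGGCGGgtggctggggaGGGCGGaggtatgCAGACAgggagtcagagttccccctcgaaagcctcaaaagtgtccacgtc

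The Tgfb1 stretch, at 75.2% G and C, held 5 GC boxes (GGGCGG), and none of the other motifs. The Mmp14 stretch held 2 GC boxes and 2 CCAAT boxes (CCAAT), the second of which shares 1 base with a GC box. In the printed stretch of Col1a2, 2 GC boxes and 1 SMAD element (CAGACA) were found. The full 250 bases of Col1a2 also held 1 CCAAT box, which does not lie within the printed stretch and counts in the shares below. Of the 42 members, 30 were matched in the RefSeq table. A GC box stood in the 250 bases before the start in 22 of the 30 (73.3%), beside 35.4% of all 27025 genes in the table. The shares were 40% and 37.5% for the CCAAT box, 30% and 19.3% for the SMAD element, 10% and 14.3% for the TATA box (TATAAA), and 6.67% and 5.16% for the AP-1 site (TGAGTCA). No member held a CArG box, which 1.62% of all genes held. The shares of all genes cover every gene of the RefSeq table, not matched to the members in type or in expression in liver, and were not tested. These matches are letters in a window and were not tested as binding sites.

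Among the stellate cell and contractile markers, all 7 that could be tested had log2 fold changes above 0, with a median of 0.76, or 0.39 without RD replicate 1. Tgfb1 (ENSMUSG00000002603), the gene of transforming growth factor beta 1, was at 4.76, 5.02 and 5.95 CPM in RD replicates 1, 2 and 3 and at 20.8, 9.10 and 11.6 CPM in HCD replicates 1, 2 and 3. Every HCD liver thus lay above every RD liver, and HCD replicate 1 was the highest. The mean rose from 5.24 ± 0.625 to 13.8 ± 6.18 CPM (SD, n = 3), a log2 fold change of 1.40 (standard error 0.32, 95% interval 0.68 to 2.13), which did not pass the adjustment (adjusted p = 0.054, edgeR). The call turned on the settings, since Tgfb1 passed with DESeq2 (adjusted p = 0.00171), without a filter on low counts in edgeR (adjusted p = 0.0173, where 1.76% of all genes were called higher) and in edgeR without HCD replicate 2 (adjusted p = 0.0390, where 1.75% were, or 1.39% with the filter repeated). Tgfb1 is also made by macrophages and endothelial cells, whose markers are given further on.

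The vitamin A and quiescence genes among these markers had overlapping diets. Lrat, the acyltransferase that forms retinyl esters and marks quiescent stellate cells, was at 4.28, 14.0 and 12.9 CPM in the RD livers and at 18.7, 12.2 and 21.6 CPM in the HCD livers, so that the diets overlapped. RD replicate 1 held the lowest value by a wide margin. The log2 fold change of Lrat was 0.76 (standard error 0.41, adjusted p = 0.335, edgeR). Reln, the gene of reelin, a secreted glycoprotein that quiescent stellate cells express, was at 34.8, 33.1 and 33.9 CPM with RD and at 65.5, 32.9 and 44.5 CPM with HCD. HCD replicate 2 was at the RD level, and the log2 fold change was 0.49 (standard error 0.23, adjusted p = 0.268, edgeR), or 0.19 without HCD replicate 1. Pdgfrb, the receptor for platelet-derived growth factor on stellate cells and pericytes, was at 12.5, 11.1 and 8.25 CPM with RD and at 16.3, 7.93 and 9.89 CPM with HCD, and its log2 fold change of 0.11 was the smallest of the group.

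The contractile and cytoskeletal markers that could be tested had overlapping diets too. Acta2, the gene of alpha smooth muscle actin and the usual marker of activated stellate cells, was at 0.529, 2.58 and 2.30 CPM with RD and at 1.92, 2.41 and 5.35 CPM with HCD. RD replicate 1 was low and HCD replicate 3 was high, and the other 4 livers lay close together. The log2 fold change of Acta2, 0.84, had a standard error of 0.64 and a 95% interval from -0.62 to 2.29, and it ranged from 0.27 to 1.17 on leaving out each liver in turn. Des, the gene of desmin, an intermediate filament protein of stellate and muscle cells, was at 4.33, 4.33 and 2.13 CPM with RD and at 7.13, 3.998 and 7.38 CPM with HCD. Here too HCD replicate 2 lay among the RD livers, and the log2 fold change was 0.79 (standard error 0.38, adjusted p = 0.282, edgeR). Vim, the gene of vimentin, an intermediate filament protein of mesenchymal and immune cells, was at 26.3, 19.4 and 20.6 CPM with RD and at 21.8, 21.6 and 30.9 CPM with HCD, with a log2 fold change of 0.16. Tagln, the gene of transgelin, had 1 to 10 counts per liver with RD and 2 to 12 with HCD and was too low to test, and 62.4% of its exon bases are shared with Gm48529 on the opposite strand.

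**Figure D2:**
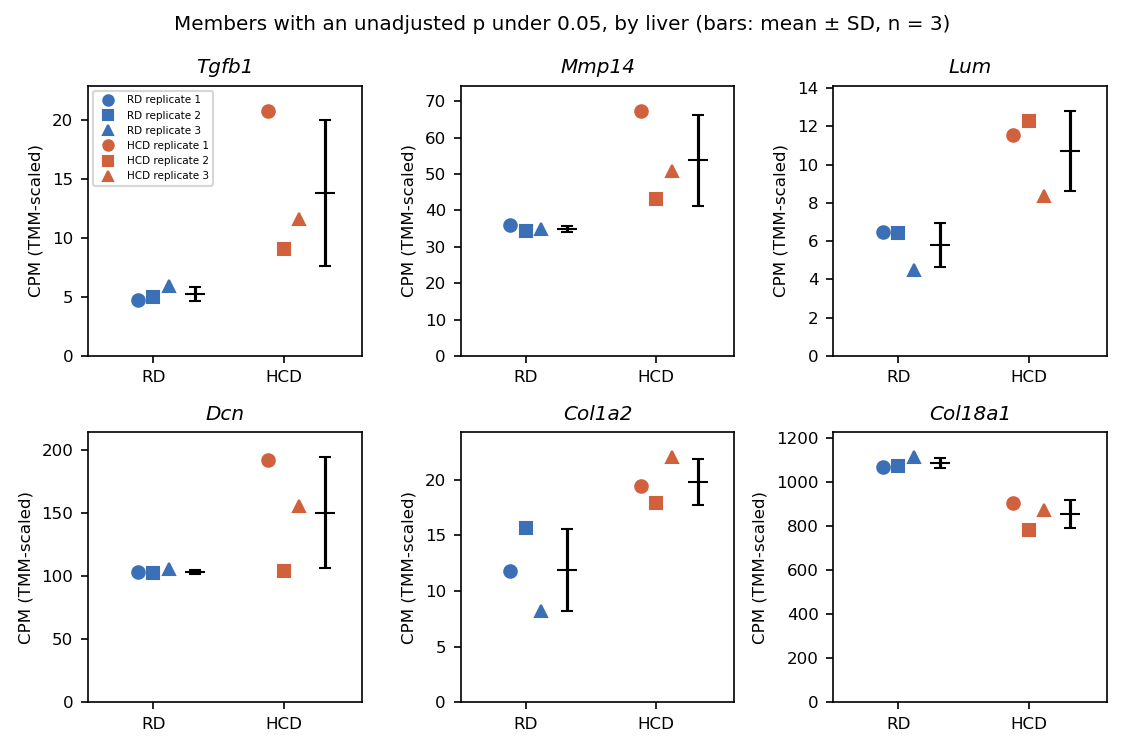
TMM-scaled CPM of the 6 members with an unadjusted p under 0.05 in each of the 3 RD livers (blue) and the 3 HCD livers (orange), with the mean ± SD beside them; each axis starts at 0. In Tgfb1, Mmp14, Lum and Col1a2 all HCD livers lie above all RD livers, in Dcn HCD replicate 2 lies at the RD level, and in Col18a1 all HCD livers lie below all RD livers.

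Of the matrix enzymes and inhibitors, 5 of 7 could be tested, and 4 of these had log2 fold changes above 0 (median 0.43). Mmp14 (ENSMUSG00000000957), a membrane-anchored metalloproteinase that cleaves fibrillar collagen and activates the proenzyme of Mmp2, was at 35.9, 34.2 and 34.9 CPM with RD and at 67.5, 43.1 and 50.7 CPM with HCD. The RD livers differed by little, and all HCD livers exceeded them. The means were 35.0 ± 0.834 and 53.8 ± 12.5 CPM (SD, n = 3), and the log2 fold change of 0.62 (standard error 0.17, 95% interval 0.22 to 1.02) had an adjusted p = 0.0973 in edgeR. DESeq2 placed Mmp14 just inside the threshold, at an adjusted p = 0.04996. Timp2, which inhibits metalloproteinases and also takes part in the activation of Mmp2 by Mmp14, was at 17.1, 16.6 and 13.1 CPM with RD and at 24.0, 14.0 and 25.9 CPM with HCD. The log2 fold change of Timp2 was 0.45 (standard error 0.24, adjusted p = 0.332, edgeR), and HCD replicate 2 again lay within the RD range.

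Timp3, the matrix-bound inhibitor, had the lowest log2 fold change of the enzymes and inhibitors, at -0.24 (standard error 0.43). It was at 5.67, 6.98 and 10.3 CPM with RD and at 4.40, 3.93 and 11.3 CPM with HCD, and 21.3% of its exon bases are shared with Syn3 on the opposite strand. Mmp2, a gelatinase, and Loxl1, a lysyl oxidase that cross-links elastin, had log2 fold changes of 0.22 and 0.43 with overlapping diets. Timp1, the inhibitor most tied to liver fibrosis, had 3, 0 and 0 counts in the RD livers and 1, 3 and 4 in the HCD livers. Lox, the collagen cross-linking lysyl oxidase, had 32, 1 and 8 counts in the RD livers and 13, 3 and 0 in the HCD livers. Neither passed the filter on low counts, and in edgeR without that filter neither was called.

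The 5 fibrillar collagen genes, which encode the chains of the collagens I, III and V, all had log2 fold changes above 0, but their median was only 0.09. Scaling by library sizes alone brought this median to 0.00026, and leaving out HCD replicate 3 turned it to -0.15. Leaving out RD replicate 3, RD replicate 1 or HCD replicate 1 moved it the other way, to 0.53, 0.37 and 0.35. Col1a2 (ENSMUSG00000029661), the second chain of collagen I, was the member of the group with separated diets, at 11.8, 15.6 and 8.25 CPM with RD and 19.5, 17.9 and 22.0 CPM with HCD. Its log2 fold change was 0.74 (standard error 0.24, 95% interval 0.20 to 1.28, adjusted p = 0.129, edgeR). Col1a1, the first chain of the same collagen, was at 17.9, 12.1 and 9.86 CPM with RD and at 8.74, 14.96 and 19.1 CPM with HCD, and thus spread as widely within a diet as between them (log2 fold change 0.09, standard error 0.32).

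Col3a1, the chain of collagen III, was at 33.8, 26.9 and 24.9 CPM with RD and at 24.3, 27.6 and 39.3 CPM with HCD, with a log2 fold change of 0.09. In both Col1a1 and Col3a1 the HCD values were highest in replicate 3 and lowest in replicate 1, whereas in RD they were highest in replicate 1. Col5a1, a chain of the collagen V that initiates fibrils, was at 6.39, 8.51 and 6.51 CPM with RD and at 11.8, 6.48 and 17.9 CPM with HCD. For Col5a1 the log2 fold change was 0.76 (standard error 0.35, adjusted p = 0.255, edgeR), and it ranged from 0.36 to 1.06 on leaving out each liver in turn. Col5a2, its partner chain, was at 1.87, 2.65 and 5.04 CPM with RD and at 3.18, 2.41 and 4.46 CPM with HCD, and the 2 diets overlapped (log2 fold change 0.06).

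Ratios of FPKM were formed for 7 pairs of members that were chosen after their values were seen. Of these, 5 join partner chains of 1 collagen or laminin, Col3a1 to Col1a2 joins chains of different collagens, and Mmp14 to Timp2 joins a protease and an inhibitor. The Col1a1 to Col1a2 ratio was 2.20 ± 0.708 with RD and 1.36 ± 0.438 with HCD (SD, n = 3; exact two-sided permutation test, p = 0.3). For Col3a1 to Col1a2 the ratio was 3.21 ± 0.897 with RD and 1.93 ± 0.340 with HCD (exact permutation p = 0.2, the smallest of the 7 pairs). Adjusted by Benjamini-Hochberg over the 7 pairs, both had p = 0.7 in these exact permutation tests, and 3 livers against 3 allow no p under 0.1. None of the 7 ratios passed, and with these livers none could have.

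The 8 basement membrane genes were split, with 4 log2 fold changes above 0 and 4 below, and a median of 0.12. This median was -0.07 without HCD replicate 3 and 0.38 without HCD replicate 2. Col18a1 (ENSMUSG00000001435), the chain of collagen XVIII, was the one member with separated diets and lower values on HCD. It was at 1070, 1072 and 1113 CPM with RD and at 904, 782 and 875 CPM with HCD, and HCD replicate 2 was the lowest. The means were 1085 ± 23.8 and 854 ± 64.1 CPM (SD, n = 3), a log2 fold change of -0.35 (standard error 0.15, 95% interval -0.68 to -0.0087) with an adjusted p = 0.228 in edgeR. The unadjusted p of Col18a1 was under 0.05 in 7 of the 16 alternatives and above it in 9. The 9 were the fits with gene length offsets, with the replicate block or with both, the one requiring a mean of 50 counts, and those leaving out any liver but HCD replicate 1. Its log2 fold change lay between -0.39 and -0.29 on leaving out each liver in turn.

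Among the network and linker components, the values lay on both sides of 0. Nid1, the gene of nidogen 1, which links laminin to collagen IV, was at 8.51, 9.56 and 11.5 CPM with RD and at 21.1, 9.10 and 15.5 CPM with HCD. Its log2 fold change, 0.63 ± 0.30 (standard error), was the largest of the group (adjusted p = 0.267, edgeR), and HCD replicate 2 fell inside the RD range. Hspg2, the gene of the heparan sulfate proteoglycan perlecan, and Lamc1, the laminin gamma 1 chain, had log2 fold changes of 0.53 and 0.38. Without HCD replicate 1 the log2 fold changes of Nid1 and Hspg2 were 0.32 and 0.20. The paired chains of collagen IV are encoded head to head, with RefSeq start sites of Col4a1 and Col4a2 21 bases apart on opposite strands of chromosome 8. Col4a1 was at 30.5, 29.2 and 28.4 CPM with RD and at 33.9, 20.1 and 32.8 CPM with HCD, and HCD replicate 2 was the lowest of the 6. The log2 fold change was -0.02 for Col4a1 and that of Col4a2 was 0.24, and Col4a2 was likewise lowest in HCD replicate 2 (10.3 CPM). Lamb1, the laminin beta 1 chain, and Col15a1, the chain of collagen XV, had log2 fold changes of -0.0035 and -0.17.

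The interstitial matrix genes were the largest group, and 13 of 14 had log2 fold changes above 0 (median 0.36). Lum (ENSMUSG00000036446), the gene of lumican, a small leucine-rich proteoglycan that binds collagen fibrils, was at 6.49, 6.42 and 4.47 CPM with RD and at 11.6, 12.3 and 8.35 CPM with HCD. The diets were separated, and Lum was the only member with its highest value in HCD replicate 2. The means were 5.79 ± 1.15 and 10.7 ± 2.09 CPM (SD, n = 3), and the log2 fold change of 0.89 (standard error 0.25, 95% interval 0.32 to 1.47) had an adjusted p = 0.0953 in edgeR. Dcn (ENSMUSG00000019929), the gene of decorin, a related proteoglycan that also binds transforming growth factor beta, was at 103, 102 and 106 CPM with RD and at 192, 104 and 156 CPM with HCD. Among the RD livers Dcn varied by a SD of 1.604 CPM around a mean of 104, while among the HCD livers the SD was 44.1 CPM around 151. Its log2 fold change was 0.54 (standard error 0.21, adjusted p = 0.191, edgeR), and it ranged from 0.32 to 0.75 on leaving out each liver in turn. The 0.75, without HCD replicate 2, had an adjusted p = 0.0471 in edgeR on the same genes. With the low-count filter repeated on the livers left, Dcn was not called.

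Fn1 and Ecm1, the members of this group that hepatocytes are known to express, were not called either. Fn1, whose soluble product hepatocytes secrete into plasma, was at 1392, 1645 and 1256 CPM with RD and at 1522, 1284 and 1319 CPM with HCD. The Fn1 log2 fold change of -0.06 (standard error 0.17) had a 95% interval from -0.45 to 0.34, so that a doubling or a halving lay outside it. Ecm1 was at 116, 119 and 153 CPM with RD and at 250, 133 and 167 CPM with HCD, and its log2 fold change was 0.50 ± 0.24 (standard error), with an adjusted p = 0.268 in edgeR, and without HCD replicate 1 the log2 fold change was 0.21. That liver was the highest, and the lower HCD livers were close to RD replicate 3. Bgn, the gene of biglycan, and Col14a1, a collagen that associates with fibrils, had log2 fold changes of 0.35 and 0.38. Sparc, which regulates collagen assembly, was at 0.12. Col6a1, Col6a2 and Col6a3, the chains of the beaded filament collagen VI, had log2 fold changes of 0.12, 0.50 and 0.23. All 3 turned to the other side of 0 when 1 liver was left out, Col6a2 to -0.13 and Col6a1 to -0.0042 without HCD replicate 3 and Col6a3 to -0.0071 without RD replicate 3. The fibulins Fbln1, Fbln2 and Fbln5 and the microfibril gene Fbn1 lay between 0.13 and 0.70 with standard errors of 0.36 to 0.64, and 20.1% of the exon bases of Fbn1 are shared with Gm9913 on the opposite strand.

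**Figure D3:**
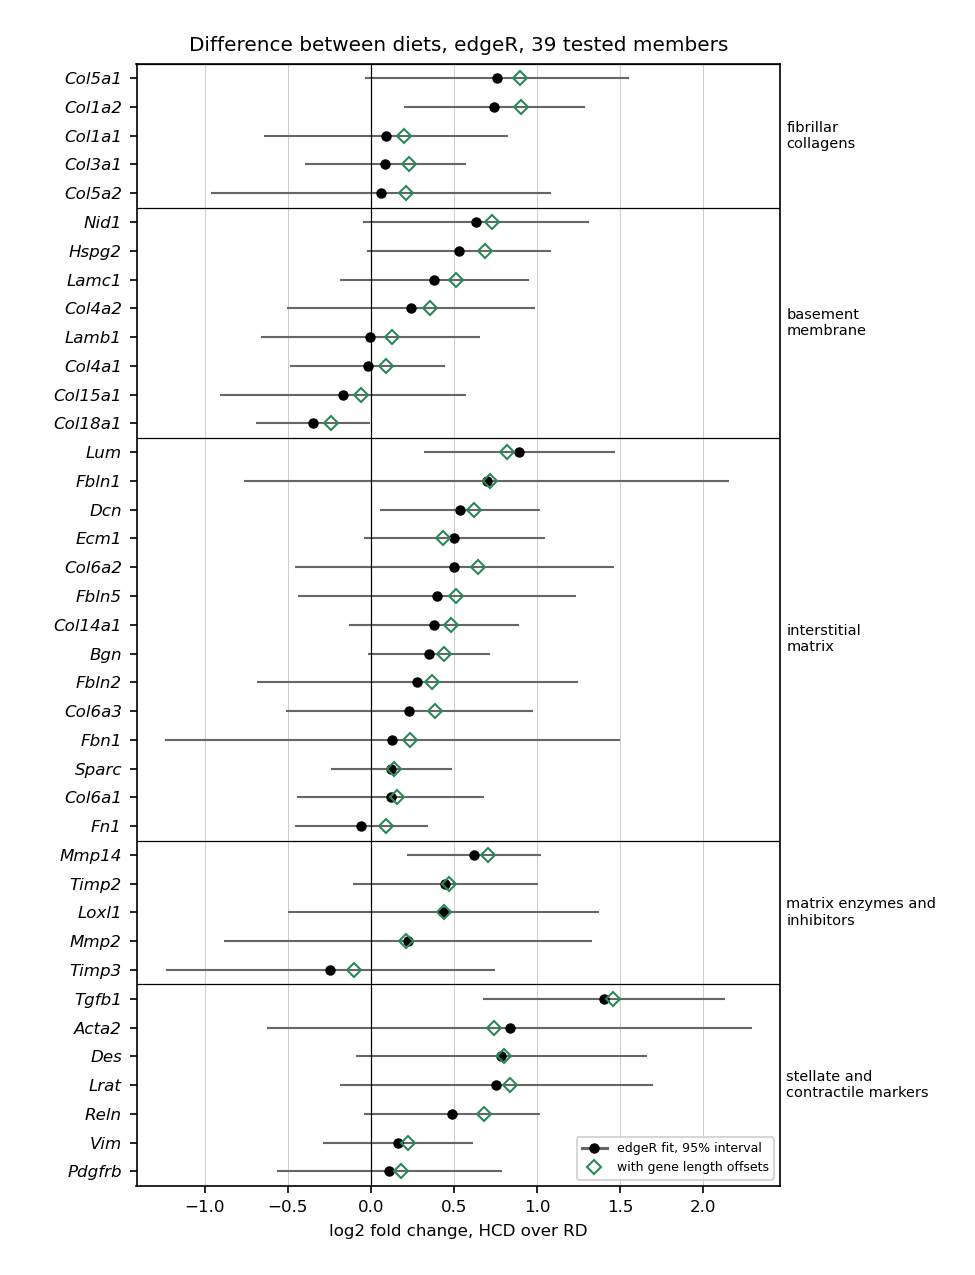
Log2 fold change of HCD over RD for the 39 members tested, grouped by role, from edgeR with 95% intervals (black) and with gene length offsets (green diamonds). The black points of 33 of 39 members lie above 0, and 33 of 39 intervals hold 0.

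The precision of these values was limited. On leaving out each liver in turn, the log2 fold change of 19 of the 39 members crossed 0 at least once, and that of 33 crossed 0 or moved by over 1.5 times. Leaving out HCD replicate 3 turned the direction of 8 members, HCD replicate 1 and RD replicate 3 of 6 each, RD replicate 2 of 5, HCD replicate 2 of 3 and RD replicate 1 of 2. The 95% interval held 0 for 33 of 39 members, lay within 1 log2 unit of 0 for 16, and reached a log2 fold change of 1 for 22, so that for those 22 a doubling with HCD was not outside the interval. The medians of the 5 role groups ran from 0.09 for the fibrillar collagens to 0.76 for the stellate and contractile markers, and differences between the role groups were not tested.

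The liver that carried the highest value of a member was rarely an RD liver. This count was made after the values were seen. HCD replicate 3 held the highest CPM of 18 of the 39 members (46.2%, beside 22.2% of all genes) and HCD replicate 1 of 16 (41.0%, beside 19.4%). By contrast HCD replicate 2 was the highest in 1 member and the lowest in 12 (30.8%, beside 13.8% of all genes). The median deviation of the members from their 6-liver mean, in log2(CPM + 0.5), was -0.11, -0.12 and -0.20 in the RD livers and 0.36, -0.20 and 0.37 in the HCD livers. HCD replicate 2 therefore lay beside the lowest RD liver, and the HCD livers did not lie together.

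The members that were high in HCD replicates 1 and 3 were not the same throughout. Nid1, Hspg2, Dcn, Ecm1, Mmp14, Reln and Tgfb1 had their highest value in HCD replicate 1. Col5a1, Col6a2, Fbln5, Loxl1, Timp3 and Acta2 had it in HCD replicate 3. Col6a2 was at 5.96, 5.86 and 5.91 CPM with RD and at 6.82, 3.998 and 14.4 CPM with HCD, so that its HCD livers spanned both sides of a narrow RD range.

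**Figure D4:**
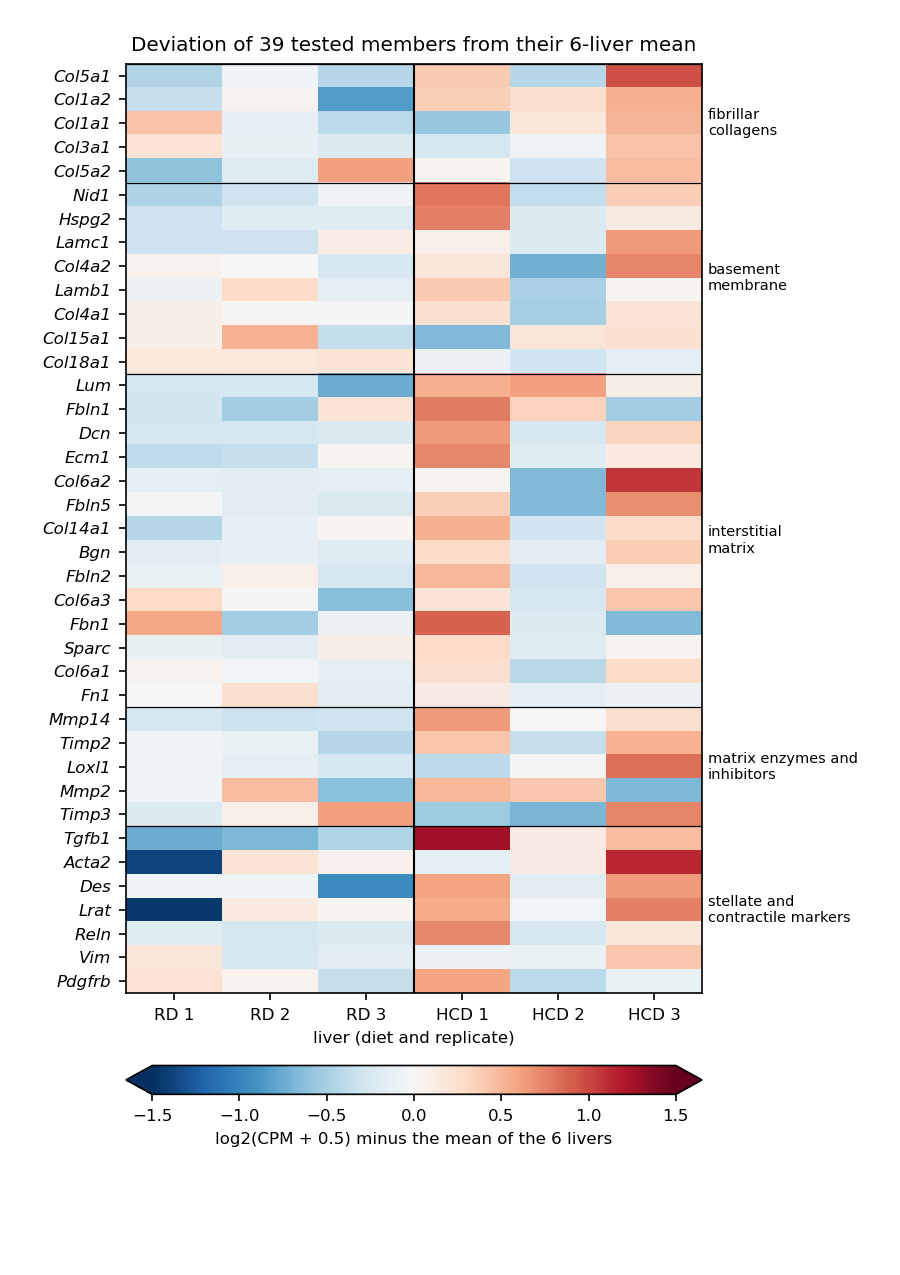
Deviation of each tested member from its 6-liver mean in log2(CPM + 0.5), with 1 column per liver and 1 row per gene, grouped by role; red is above and blue below the mean. The columns of HCD replicates 1 and 3 are mostly red, with 31 and 33 of 39 members above 0, and the column of HCD replicate 2 is mostly blue, with 10 of 39 above 0.

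Because Fn1 and Col18a1 take most of the counts on the members, the other 40 were also summed apart from them, a split made after the values were seen. Fn1 and Col18a1 together held 75.2% to 78.1% of the member counts in the RD livers and 66.8% to 73.2% in the HCD livers, and the diets did not overlap (exact two-sided permutation test, p = 0.1, the smallest that 3 livers against 3 allow). The summed level of the pair itself overlapped, at 2463, 2718 and 2369 CPM with RD and at 2426, 2065 and 2194 CPM with HCD (exact permutation p = 0.2). The other 40 members summed to 756, 763 and 783 CPM with RD and to 1204, 758 and 1088 CPM with HCD. Here HCD replicate 2 matched the RD livers and the other HCD livers exceeded them (exact permutation p = 0.3).

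The summed stellate, Kupffer and sinusoidal endothelial markers were each highest in HCD replicate 1, and their part in the results was not tested. The quiescent stellate markers, of which Lrat and Reln are members, numbered 11 as used here and summed to 125 to 193 CPM with RD and 173 to 261 CPM with HCD, with 9 of 11 log2 fold changes above 0. None was called in edgeR, where an unadjusted p under 0.05 was found for 3, each higher on HCD, and DESeq2 called 1 higher. For these lists the shares of all genes are again 11.1% higher at an unadjusted p under 0.05 and 3.88% called higher by DESeq2. The 10 Kupffer cell markers summed to 168 to 277 CPM with RD and to 506, 448 and 230 CPM in HCD replicates 1, 2 and 3. All 10 had log2 fold changes above 0, and HCD replicate 2, where the matrix members were low, was high for them. None was called in edgeR, 5 had an unadjusted p under 0.05, and DESeq2 called 4 higher. The 12 sinusoidal endothelial markers summed to 154 to 262 CPM with RD and to 317, 209 and 214 CPM in HCD replicates 1, 2 and 3. None of them was called in edgeR, 3 were at an unadjusted p under 0.05 and 1 was called by DESeq2.

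The markers of other mesenchymal cells were low. The 8 smooth muscle and pericyte markers summed to 7.98 to 14.3 CPM with RD and 13.6 to 35.9 CPM with HCD, and Tpm2, a tropomyosin gene, was called higher (log2 fold change 2.81, adjusted p = 0.0246, edgeR). Without Tpm2 the other 7 summed to 6.15 to 11.4 CPM with RD and 6.76 to 12.1 CPM with HCD. Of the defining smooth muscle markers, Cnn1 and Actg2 averaged under 0.2 CPM in both diets, and Myh11 averaged 1.71 CPM with RD and 0.942 CPM with HCD. The 8 portal fibroblast markers summed to 11.2 to 11.7 CPM with RD and 11.7 to 16.2 CPM with HCD, and the 6 mesothelial markers to 3.32 to 10.3 CPM and 2.41 to 14.3 CPM. Among these fibroblast and mesothelial markers none was called by edgeR or DESeq2, and 1 had an unadjusted p under 0.05. The 6 red cell markers, which mark blood left in the tissue, summed to 138 to 239 CPM with RD and to 177, 468 and 452 CPM in HCD replicates 1, 2 and 3. The members of this list went different ways in HCD replicate 1. There Alas2, the erythroid enzyme of heme synthesis, was at 8.24 CPM, beside 105, 105 and 154 CPM with RD, whereas the globin genes Hbb-bs and Hba-a1, at 80.6 and 77.1 CPM, lay above every RD liver, the highest of which had 38.6 and 36.7 CPM. Hba-a1 and Hbb-bs were called higher with HCD.

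The remaining lists set the tissue in place. Hepatocyte markers, 7 of them listed, summed to 87100 to 120500 CPM with RD and 95470 to 136100 CPM with HCD, so that the defining markers of the labelled tissue were present. The 6 cholangiocyte markers summed to 37.4 to 91.9 CPM with RD and 64.6 to 98.1 CPM with HCD, and the 9 leukocyte markers to 8.70 to 14.1 CPM and 9.56 to 16.3 CPM. No gene of these 3 lists was called in edgeR, 1 had an unadjusted p under 0.05, and DESeq2 called that many, among the hepatocyte markers.

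**Figure D5:**
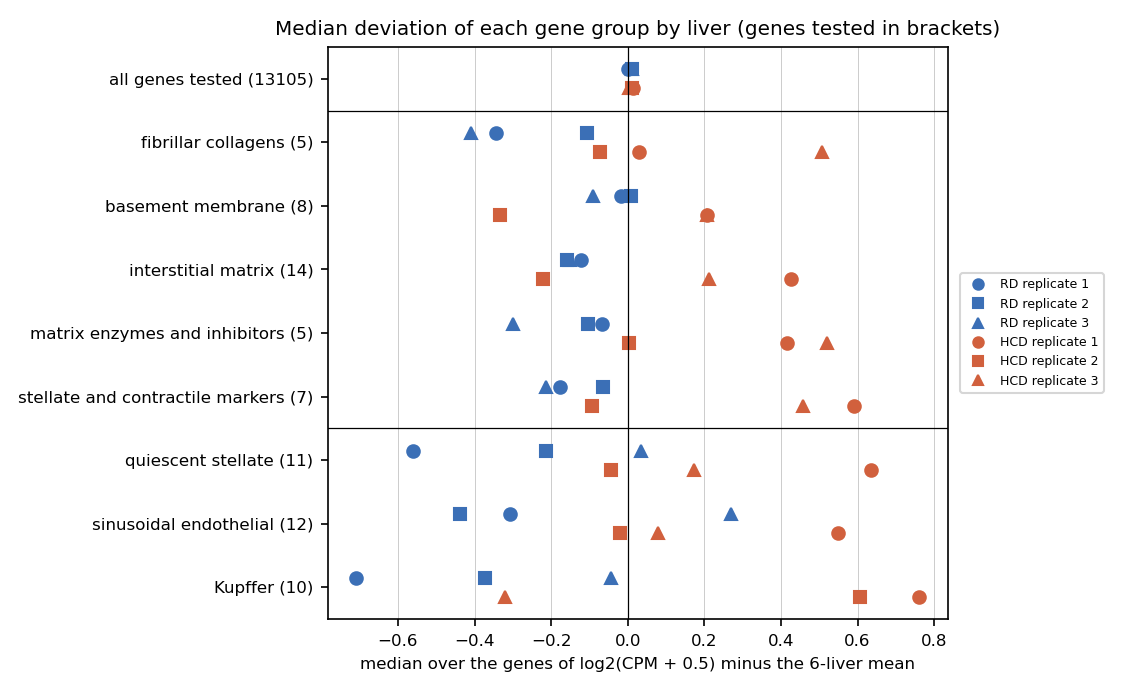
Median over the genes of a group of log2(CPM + 0.5) minus the 6-liver mean, for each liver (RD blue, HCD orange, 1 symbol per replicate), for all genes tested, the 5 role groups and 3 cell marker lists. In the role groups HCD replicates 1 and 3 lie on the right, while in the Kupffer list HCD replicates 1 and 2 do.

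Other genes of matrix biology, from 5 lists that do not contain the members, were examined in the same fit. Of 140 names, 134 were listed and 110 were tested. No gene of these lists was called in edgeR in either direction, while an unadjusted p under 0.05 was found for 9 with higher and 9 with lower values on HCD (8.18% each way, beside 11.1% and 9.81% of all genes). DESeq2 called Mmp12, Sdc3 and Mmp19 higher and Bmp1 and Sec24d lower, beside 3.88% and 3.09% of all genes in its fit.

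The 24 genes of collagen processing, which modify, fold, export and trim procollagen, had a median log2 fold change of 0.0018 over 23 tested, and 4 of them (17.4%, beside 13.7% of all genes) had lower values in every HCD liver than in any RD liver. Bmp1, the protease that removes the carboxyl propeptide of procollagen, was at 135, 124 and 115 CPM with RD and at 86.1, 81.3 and 91.3 CPM with HCD. Its log2 fold change was -0.53 (standard error 0.12, adjusted p = 0.0588, edgeR). Pcolce, which enhances that cleavage, and Plod3, a lysyl hydroxylase, had log2 fold changes of -0.56 and -0.46. Sec24d, a coat protein for procollagen export, was at 130, 122 and 103 CPM with RD and at 62.9, 101 and 60.9 CPM with HCD (log2 fold change -0.66, adjusted p = 0.129, edgeR). Mia3, the cargo receptor for procollagen and the most expressed gene of the list at 48.1 FPKM, was at a log2 fold change of -0.04.

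The TGF-beta pathway genes had a median log2 fold change of 0.37 over 21 tested, with 15 above 0. Smad6, an inhibitory SMAD, was at 7.88, 5.44 and 6.60 CPM with RD and at 14.4, 9.38 and 8.75 CPM with HCD, and it was the one gene of this list with an unadjusted p under 0.05 (log2 fold change 0.71, adjusted p = 0.176, edgeR). Eng, the gene of the coreceptor endoglin and the highest of the list at 23.9 FPKM, was at a log2 fold change of 0.39, with an adjusted p = 0.287 in edgeR.

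Among the matrix receptors, 14 of 20 tested had log2 fold changes above 0 (median 0.15). Sdc3, the gene of syndecan 3, was at 21.8, 28.7 and 36.9 CPM with RD and at 59.1, 47.9 and 44.7 CPM with HCD (log2 fold change 0.80, adjusted p = 0.0795, edgeR). Itga6, Cd44 and Itgb5, which encode an integrin alpha chain, the hyaluronan receptor and an integrin beta chain, were the other genes of this list with every HCD liver above every RD liver, which makes 4 of 20 (20%, beside 14.0% of all genes). Sdc4, the gene of syndecan 4 and the highest of the list at 222 FPKM, had a log2 fold change of -0.09.

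The 29 other matrix genes tested had a median log2 fold change of 0.25. Agrn, the gene of the proteoglycan agrin, had lower values on HCD, at 35.9, 43.3 and 34.4 CPM with RD and 24.3, 28.2 and 25.5 CPM with HCD (log2 fold change -0.54, adjusted p = 0.0863, edgeR). In Lama2, a laminin alpha chain gene, every HCD liver lay above every RD liver (log2 fold change 1.21, adjusted p = 0.147, edgeR). Of the 29 genes, 1 was thus separated each way (3.45%, beside 14.0% of all genes above and 13.7% below). Vtn, the gene of the plasma and matrix protein vitronectin, was the highest at 2527 FPKM, with a log2 fold change of 0.23. The 17 matrix proteases and inhibitors tested had a median of 0.44. Mmp19, a metalloproteinase, was at 46.9, 49.8 and 45.8 CPM with RD and at 67.4, 59.3 and 91.2 CPM with HCD (log2 fold change 0.61, adjusted p = 0.0952, edgeR). Adam9, a membrane-bound protease and the highest of the list at 27.3 FPKM, had a log2 fold change of -0.36. Mmp12, the macrophage elastase, had 4, 1 and 3 counts with RD and 23, 5 and 48 with HCD and was below the filter of the edgeR fit.

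Gene length differed between the members and the rest of the genes. The tested members had a median exon length of 6563 bases, beside 4236 over all genes, and 31 of 39 were longer than that median. Over all genes the median log2 fold change ran from 0.32 in the shortest of 10 equal bins to -0.17 in the longest. With offsets that remove this trend in each liver, the median log2 fold change of the members was 0.44, 36 of 39 lay above 0 and 10 had an unadjusted p under 0.05 with higher values on HCD (beside 10.5% of all genes), but none was called in edgeR (smallest adjusted p = 0.0528).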

How the data were processed

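The authors deposited whole-number read counts per gene, without normalization, for 6 mouse livers. FPKM, which the authors deposited too, divide by gene length and by a library total that is not stated. Columns with the authors' own log2 fold changes and p-values were not used. The submitters' notes list STAR, HTSeq, DESeq2, edgeR and GRCm39 with no roles, RNA was isolated with the RNeasy Kit, and the library kit, strand and annotation are not given in the sources used here. Lengths implied by the deposited values equalled GENCODE M21 exon lengths within 0.1% for 95% of genes in RD replicate 1, and M21 lengths were used.

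R 4.3.3 and edgeR 4.0.16 served for the count analysis. Of 20673 genes, 13105 passed filterByExpr by diet. They were scaled by TMM (factors 0.886 to 1.07) and tested, HCD against RD, by the quasi-likelihood F test, two-sided and without covariates. Calls required a Benjamini-Hochberg adjusted p under 0.05. CPM are TMM-scaled. Depth was 13771630 to 23129576 counts per liver. The scripts were tested on simulated data, and matplotlib 3.10.9 drew the figures. No source says how the livers were sampled beyond the number per diet and 1 library each. The p-values therefore set the difference between diets against the spread between these livers.

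The members and lists were chosen with earlier results of these data known. Values per liver were planned for the 2 members of highest FPKM and those with the largest rise and fall in each role group. Values of other members, and pathway genes beyond the highest of each list, were added after seeing them. Of the listed names, Mmp3, Mmp10, Mmp16, Mmp24, Timp4, Ccn2 (present as Ctgf), Ly6g, Ncr1 and Tf were not used here, and 2 further markers, of stellate and biliary cells, are not reported here.

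Alternatives were DESeq2 1.42.0, RLE factors or unscaled library sizes, omitting the low-count filter, requiring a mean of 50 counts, limma-trend (limma 3.58.1) on log2 of FPKM plus 1 or 0.1, gene length offsets (loess, span 0.5, degree 1, prior count 2), a replicate block with and without these offsets, and each liver left out in turn.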

Additional observations from a re-analysis of the deposited data

How the results depend on the processing

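The fits numbered 16 alternatives and, added after seeing the data, 6 that repeated the low-count filter on the 5 livers left. No member was called lower in any of them. Members called higher numbered 2 with DESeq2 (Tgfb1 and Mmp14), 1 without a filter on low counts (Tgfb1), and from 0 to 2 on leaving out each liver, the 2 being Tgfb1 and Dcn without HCD replicate 2. With the filter repeated, leaving out HCD replicate 2 called 1, Tgfb1. Over all genes, 3.88% were called higher with DESeq2, 1.76% without the filter, 1.75% without HCD replicate 2 and 1.39% with the filter repeated. In those alternatives Tgfb1 had a log2 fold change of 1.39 in DESeq2, 1.39 unfiltered and 1.63 without HCD replicate 2, and Mmp14 0.61 in DESeq2. The median log2 fold change of the members stayed above 0, from 0.20 with limma-trend on log2(FPKM + 1) to 0.55 without HCD replicate 2.

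On leaving out each liver, with either gene set, the median ranged from -0.15 to 0.53 for the fibrillar collagens, from -0.0702 to 0.38 for the basement membrane, from 0.21 to 0.54 for the interstitial matrix, from 0.12 to 0.54 for the enzymes and inhibitors, and from 0.39 to 0.96 for the stellate and contractile markers. Other matrix genes called higher numbered 3 with DESeq2 and 1 without a filter, and those called lower numbered 2 with DESeq2 and from 0 to 1 on leaving out a liver. The cause of these changes was not tested.

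The deviations showed no clear pairing by replicate number, which was not tested and which so few livers cannot exclude. The correlations of same-numbered livers' deviations were -0.08, 0.09 and -0.04, and only replicate 2 correlated best with its own number. With the replicate block no member was called, the members' median was 0.33, the smallest adjusted p was 0.101, and 71 genes were called higher and 65 lower over all genes, beside 255 and 173 without it. With the block and gene length offsets together the median was 0.40 and 47 and 49 genes were called. Over all genes, leaving out RD replicate 1 left 17 higher and 22 lower, RD replicate 2 left 23 and 34, RD replicate 3 left 73 and 73, HCD replicate 1 left 207 and 135, HCD replicate 2 left 229 and 158, and HCD replicate 3 left 54 and 50, and DESeq2 called 552 and 440.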
